A study of Mus musculus with 2 samples.

Results

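Ribosomal protein genes encode the proteins that assemble with ribosomal RNA into the small (40S) and large (60S) ribosomal subunits. The genes described here are the 87 of 31253 measured features whose symbols start with Rps or Rpl and a digit, plus Rplp0, Rplp1, Rplp2 and Rpsa. Names of the Rps6k kinase family (10) and names of pseudogenes marked -ps (8) were left out. Small-subunit symbols numbered 35 and large-subunit symbols 52. The naming rule also took in 2 genes that encode no ribosomal protein, Rps19bp1 and Rps23rg1, and they are kept in the counts and named where they stand apart. Of the 87 members, 83 reached 10 CPM (UMI counts scaled to a common total per group of cells) in either library of the Treg-gated cells defined below. The others were Rps23rg1, Rpl39l, Rpl3l and Rpl10l, of which Rpl10l had no count in any deposited barcode. The members lie on 19 chromosomes, 4 of them on the X.

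The data are droplet-based 3′ single-cell RNA-seq of mouse spleen cells sorted as CD4+FoxP3+ regulatory T (Treg) cells, the T cells that restrain immune responses. The first library came from Foxp3YFP-Cre Kmt2d+/+ mice (here +/+) and the second from Foxp3YFP-Cre Kmt2dfl/fl mice (here fl/fl), so both carry Cre recombinase and YFP under the control of Foxp3. The enzyme KMT2D places methyl groups on lysine 4 of histone H3, and in the fl/fl mice its floxed alleles are open to deletion in cells that express or have expressed Foxp3. Each library pooled the cells of 3 mice, with 1 library per genotype. No test between genotypes was therefore possible, and every interval below covers counting error only. A difference between the libraries cannot be told apart from a difference between the mice, the sorts or the library preparations.

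The files held 7947 (+/+) and 8784 (fl/fl) barcodes with 53680614 and 63989234 unique molecular identifiers (UMIs, each a count of 1 captured molecule), and the libraries shared 15 barcode sequences. Cells were grouped by gates on marker UMIs. Treg-gated cells carried T cell receptor or CD3 transcripts together with Foxp3 or Ikzf2, and numbered 3878 and 3736. CD4 T cells without a Foxp3 or Ikzf2 UMI, called conventional here, numbered 766 and 736. Despite the sort, other gates held CD8 T cells (280 and 381) and B cells (507 and 1258). Natural killer (NK) cells (68 and 78) and myeloid cells (163 and 138) were present too. In Treg-gated cells Foxp3 was at 41.1 and 27.6 CPM and Ikzf2 at 2252 and 2186 CPM, Cd79a was at 1.24 and 2.12 CPM, and no Cd8a UMI was present because the gate excludes it. At so low a Foxp3 count, a cell without a Foxp3 UMI may still express the gene. The conventional CD4 gate may therefore hold Treg cells with little or no Ikzf2, and how many was not tested. Summed markers of other cells in Treg-gated cells came to 11.6 and 5.53 CPM for the B lineage, 6.78 and 4.24 CPM for myeloid cells, 30.4 and 24.7 CPM for NK cells and 50.8 and 41.7 CPM for plasma cells, against 4206 and 4037 CPM of B lineage markers in the B gate. Kmt2d itself was at 70.7 and 67.4 CPM in Treg-gated cells. The deleted exons are not given in the sources used here, so this 3′ count does not check the deletion.

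Ribosomal protein genes are among the most highly transcribed genes of a cell, and each ribosome is built from a set of their products. Their messenger RNAs belong to the 5′ terminal oligopyrimidine (TOP) class, which starts with a cytosine followed by a run of pyrimidines and is translated under control of the mTORC1 kinase complex through the RNA-binding protein LARP1. Naive and resting lymphocytes hold many of these messages, and activation changes both their translation and the balance with other transcripts.

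The start sites of members on which the results turn are shown first, because the TOP run is the sequence feature the family is known for. Each line gives 30 bases from RefSeq (GRCm38.p6), 15 before the annotated start and 15 from it. Capitals mark a run of at least 6 pyrimidines that opens with C and begins within 10 bases of the start, and a run may go on past the window. Rps19 is shown at the listed start that has a run. Rps20 was not found in the table.
Rps19, chr7:24884898-24884927, plus strand: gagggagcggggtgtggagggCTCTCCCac
Rpl13a, chr7:45128731-45128760, minus strand: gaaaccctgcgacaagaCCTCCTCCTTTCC
Rps4x, chrX:102189377-102189406, minus strand: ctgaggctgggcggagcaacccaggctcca
Rpl5, chr5:107900513-107900542, plus strand: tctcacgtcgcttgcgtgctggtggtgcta
Rpl4, chr9:64173372-64173401, plus strand: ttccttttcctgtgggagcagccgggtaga
Rps15a, chr7:118116133-118116162, minus strand: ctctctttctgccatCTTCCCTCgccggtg
Rpl38, chr11:114668565-114668594, plus strand: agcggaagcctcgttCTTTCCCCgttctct
Rps27, chr3:90213634-90213663, minus strand: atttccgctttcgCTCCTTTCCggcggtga
Rps28, chr17:33824548-33824577, minus strand: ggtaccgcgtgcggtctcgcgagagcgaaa

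In Rps15a and Rpl38 the run begins at the first transcribed base of the RefSeq start, in Rps27 it begins 2 bases before it and in Rpl13a 2 bases after it. The annotated starts of Rps4x, Rpl5, Rpl4 and Rps28 have no such run within this distance of the start, although the Rpl4 window opens with a stretch of pyrimidines farther upstream. A missing match says only that these letters were not found at this distance. RefSeq start sequences were matched by symbol for 67 of the 87 members, and a gene counted when any of its listed starts had the run. The run was present in 36 of them (53.7%), against 21.9% of the 27025 genes of the table and 23.2% of mitochondrial ribosomal protein genes. The letters CCGGAAG, searched on both strands of the 300 bases from 250 before to 50 after the start, were present in 26 members (38.8%), in 9.93% of all genes and in 37.7% of mitochondrial ribosomal protein genes.

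The family made up 24.6% of all UMIs of Treg-gated cells in the +/+ library and 29.9% in the fl/fl library, a difference of 5.27 percentage points. The median over cells was 23.9% (quartiles 18.7 and 29.1) in +/+ and 30.7% (25.04 and 35.1) in fl/fl, so the distributions of cells overlapped widely. Conventional CD4 T cells of the same libraries, gated to carry no Foxp3 or Ikzf2 UMI, held 29.2% in both, a difference of -0.037 points. That gate differed in makeup between the libraries: summed effector markers were at 889 CPM (+/+) and 1618 CPM (fl/fl), cytotoxic and memory markers (Ccl5, Nkg7, Gzmk, Eomes and Cxcr3) at 459 and 2235 CPM, and NK markers at 9.91 and 53.1 CPM. Conventional CD4 T cells that pass the marker rule for resting cells (503 and 432, 65.7% and 58.7% of the gate), a split chosen after the data were seen, held 31.3% and 33.2%, a difference of 1.97 points. The rest of the gate held 25.9% and 23.9%. The equal shares of the whole gate were thus not present within either of its parts. As a whole, the fl/fl Treg-gated cells had a family share 0.741 points above that of the conventional CD4 T cells beside them, and the +/+ Treg-gated cells a share 4.56 points below it.

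The higher share in the fl/fl library was seen in each of the 5 Treg states gated by markers. Resting cells, defined by Ccr7, Lef1, Tcf7 and similar genes, held 28.0% in +/+ and 32.6% in fl/fl. Effector cells, defined by Icos, Klrg1, Maf, Tigit and similar genes, held 19.4% and 21.5%, and cells between these states 24.1% and 26.9%. Interferon-responding cells held 25.1% and 29.1%, and cycling cells 23.3% and 25.1%. The makeup of the Treg-gated cells also differed between the libraries: resting cells were 40.9% of them in +/+ and 66.6% in fl/fl, and effector cells 27.1% and 11.1%. Median depth was 5593 UMIs per cell in +/+ and 6892 in fl/fl Treg-gated cells, and the median mitochondrial share was 2.99% and 2.48%. Among resting cells of 4000 to 8000 UMIs (1155 and 1585 cells) the family share was 28.6% and 32.9%. The part of depth and RNA quality in the difference was not tested.

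Among other cells, naive-like CD8 T cells had the highest family share of all gates, 32.9% in +/+ and 34.9% in fl/fl, and memory-like CD8 T cells 24.1% and 24.5%. B cells held 21.8% and 24.1%, a difference of 2.29 points in cells outside the T lineage. NK cells held 13.8% and 14.96%, and myeloid cells 16.9% and 16.1%. Plasma cells, dendritic cells and neutrophils fell under 50 cells in at least 1 library and are given as shares only: 13.9% and 13.5% for plasma cells, 16.0% in both libraries for dendritic cells, and 3.92% and 3.76% for neutrophils. The order of naive-like CD8, then resting Treg or conventional CD4, then B, then myeloid and NK cells was present in both libraries. In the plot of the family share by gate this order is seen beside the libraries' differences.

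**Figure D1:**
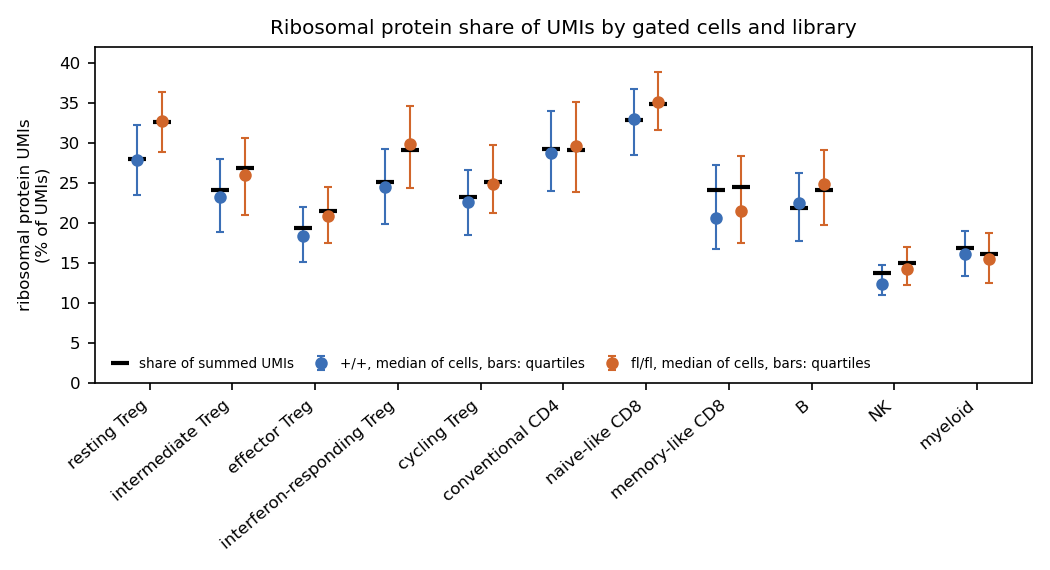
Ribosomal protein share of UMIs (% of UMIs, vertical axis from 0) for 11 marker-gated groups of cells (horizontal axis). Points are medians over cells with quartile bars, blue for +/+ and orange for fl/fl, and black dashes are shares of summed UMIs. All 5 Treg states sit higher in fl/fl, conventional CD4 T cells as a whole have shares of 29.2% in both libraries, and NK and myeloid cells lie lowest.

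Genes of both subunits had higher shares in fl/fl. In Treg-gated cells the 40S genes made up 11.5% of UMIs in +/+ and 14.1% in fl/fl, and the 60S genes 13.1% and 15.8%. The ratio of 60S to 40S UMIs was 1.14 and 1.11. In conventional CD4 T cells it was 1.105 and 1.113.

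Gene by gene, 31 of the 83 measured members were at least 25% higher in CPM in fl/fl than in +/+ Treg-gated cells, with an interval excluding an equal level, and none was at least 20% lower. These limits, a log2 ratio of 0.32 either way, hold for every count below. Of all 8055 measured genes, 6.47% were higher and 23.3% lower by the same rule. At a fold of 1.5 the count of higher members was 4 (2.45% of genes). With the 5 Treg states weighted alike it was 14, counted by the fold alone (6.13% of genes). The members' median log2 ratio was 0.27 (fl/fl over +/+), from -0.22 to 0.68, beside a median of -0.13 for all measured genes. CPM is a relative scale: scaling by the median gene, which sets that -0.13 to 0, gives a median of 0.40 for the members and a count of 55, where 11.5% of all genes were higher. Intervals lay above 0 for 70 members (15.8% of all genes) and below 0 for 8 (51.3%), and they included 0 for 5. Most members have high counts and so narrow intervals. The shares of all genes set beside counts of members, here and below, were not matched for level.

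Rps19, a protein of the 40S head whose human counterpart is mutated in Diamond-Blackfan anaemia, had the highest ratio in Treg-gated cells (ENSMUSG00000040952, GRCm38 chr7:24884371-24889806, plus strand). It was at 3729 CPM (+/+) and 5958 CPM (fl/fl), a log2 ratio of 0.68 (95% interval 0.66 to 0.69). In conventional CD4 T cells it was at 4847 and 4568 CPM, in CD8 T cells at 4626 and 4453 CPM, and in B cells at 3658 and 3643 CPM. The fl/fl library was thus higher for Rps19 in Treg-gated cells, and in these other lymphocytes its log2 ratios were -0.09, -0.05 and -0.01, with 0.04 in conventional CD4 T cells that pass the resting rule. The Treg ratio exceeded the conventional CD4 ratio by 0.76 (0.73 to 0.79) and the B cell ratio by 0.68 (0.65 to 0.71), the widest gaps of any measured member.

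Rps20, another 40S protein, followed the same pattern in T cells (chr4:3831334-3835665, minus strand). Its level was 4226 CPM (+/+) and 6229 CPM (fl/fl) Treg-gated cells, a log2 ratio of 0.56 (0.55 to 0.57). Conventional CD4 T cells had 5468 and 5387 CPM, a ratio of -0.02 with an interval from -0.05 to 0.00. In B cells it was higher in fl/fl, at 4368 and 5068 CPM. Within the 5 Treg states the ratio of Rps19 ranged from 0.35 to 0.59 and that of Rps20 from 0.20 to 0.47, with all intervals above 0.

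A second pair of genes was higher in fl/fl in nearly every kind of cell. Rps4x, the X-linked 40S protein S4 (chrX:102184941-102189394, minus strand), was at 3283 and 5022 CPM in Treg-gated cells, 4088 and 4910 CPM in conventional CD4 T cells, and 2888 and 4472 CPM in B cells. The log2 ratios were 0.61, 0.26 and 0.63. Rpl5, which binds 5S ribosomal RNA and can hold MDM2 away from p53 (chr5:107900502-107909005, plus strand), was at 1927 and 2911 CPM in Treg-gated cells, with a ratio of 0.59. In B cells Rpl5 was at 1393 and 2387 CPM, a ratio of 0.78 (0.73 to 0.82), above its Treg ratio. Both genes had intervals above 0 in all 5 Treg states and all 6 other gates, as did Rpl7, Rps3a1 and Rps14, which were chosen after their values were seen. For these genes the library difference was present outside the Treg gate too. The share of all genes with such intervals in every gate was not counted.

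Rpl13a and Rpl4 completed the 6 highest ratios. Rpl13a, a 60S protein known also as a translational repressor in the GAIT complex, was a low member, at 336 and 519 CPM in Treg-gated cells, a log2 ratio of 0.63 (0.59 to 0.67). Effector Treg cells had 255 and 459 CPM of it, a ratio of 0.85 (0.74 to 0.96), against 0.50 in resting cells. In conventional CD4 T cells its ratio was 0.13 (0.04 to 0.22). Rpl4, which lines the exit tunnel of the 60S subunit, was at 906 and 1327 CPM, a ratio of 0.55. Its conventional CD4 ratio was 0.07 and its B cell ratio 0.49. Short pseudogene copies are known for many members, and how reads shared with a copy were assigned is not given in the sources used here.

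At the other end, Rps27rt, Rps19bp1, Rpl38, Rps28, Rps27 and Rps27l had the lowest ratios, none of them past the limit. Rpl38, a small 60S protein known for its part in the translation of Hox messages in mouse embryos (chr11:114668524-114672331, plus strand), was at 1802 and 1584 CPM in Treg-gated cells, a log2 ratio of -0.19 (-0.20 to -0.17). It had intervals below 0 in all 5 Treg states and all 6 other gates, with a ratio of -0.27 in conventional CD4 and -0.17 in B cells. Rps28, a small 40S protein near the mRNA exit, was at 2373 and 2197 CPM, a ratio of -0.11, and at -0.31 in conventional CD4 and -0.29 in B cells. Rps27 was at 4374 and 4135 CPM, a ratio of -0.08, and Rps27l at 202 and 193 CPM, a ratio of -0.06. The negative direction of Rps28, Rps27 and Rps27l in Treg-gated cells did not hold with scaling by the median gene, where the ratios were 0.02, 0.05 and 0.07, while Rpl38 stayed at -0.05. Rps27rt, a copy of Rps27 that may share its reads, was at 167 and 144 CPM, so its value is uncertain. Rps19bp1, a nucleolar protein that binds RPS19 and is no part of the ribosome, was at 22.9 and 19.8 CPM, with a wide interval (-0.38 to -0.04).

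The ratios of the same gene in Treg-gated and conventional CD4 T cells are set side by side in the scatter of both. The Treg ratio minus the conventional CD4 ratio had a median of 0.28 over the 83 members, against -0.11 for 7637 genes measured in both. It was past the limit upward for 30 members, where 6.57% of all genes were, and downward for none, where 18.6% were. The intervals of the difference lay above 0 for 78 members (9.52% of genes). With resting Treg cells in place of all Treg-gated cells the median was 0.21, with 11 members upward and none downward, beside 5.46% and 17.1% of genes. When the conventional CD4 T cells were also limited to those that pass the resting rule, the median was 0.12, against -0.06 for all genes, with 3 members upward and none downward (4.69% and 11.4% of genes). The 3 were Rps19 with 0.55 (0.51 to 0.59), Rpl13a with 0.38 and Rpl4 with 0.34, and Rps20 had 0.32, just inside the limit. Against CD8 T cells the median was 0.25 and 17 members were past the limit upward and none downward (5.75% and 14.1% of genes). Against B cells the median was 0.10, with 2 members past the limit upward (5.75% of genes), Rps19 with 0.68 and Rps20 with 0.35. Rps27l, with -0.37, was past it downward (17.0% of genes).

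**Figure D2:**
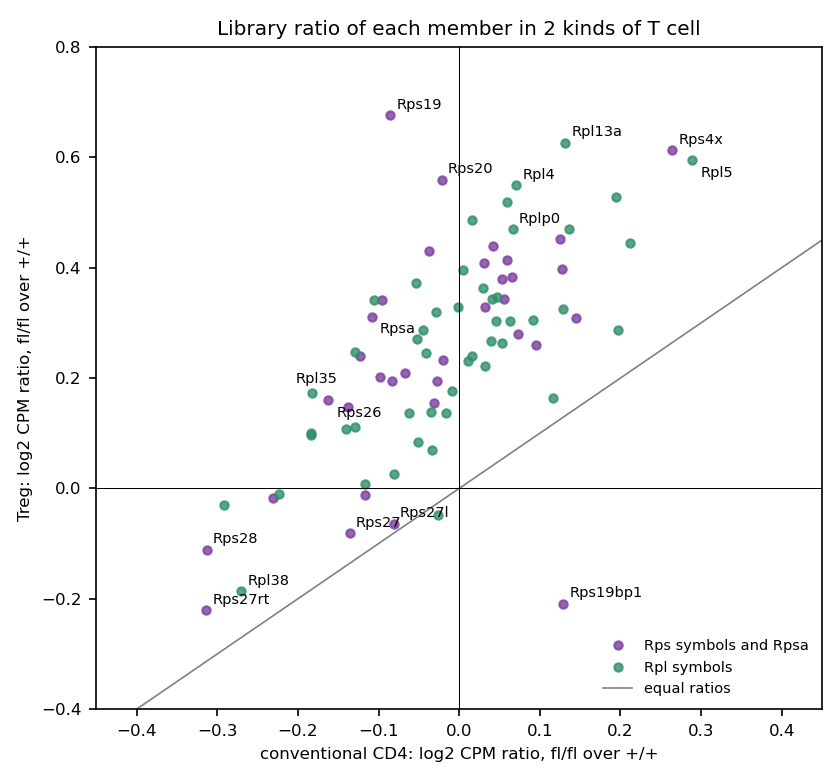
Log2 CPM ratio, fl/fl over +/+, in Treg-gated cells (vertical axis) against that in conventional CD4 T cells (horizontal axis) for the 83 measured members, purple for 40S and green for 60S symbols. The grey line marks equal ratios. Nearly all points lie above it, Rps19 farthest (0.68 against -0.09), while Rps19bp1 lies lowest on the right.

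By gate, 17 members were past the limit upward in resting Treg cells (7.19% of genes), 14 in intermediate (7.56%), 15 in effector (8.64%), 17 in interferon-responding (6.21%) and 5 in cycling cells (7.18%). No member was past it downward in any of these states, where 23.8%, 15.2%, 17.4%, 16.3% and 12.6% of genes were, in the same order. The 5 members past it in every Treg state were Rps19, Rps4x, Rpl5, Rpl13a and Rpl23a. How many of all genes were past it in every state was not counted. All 17 members past the limit in resting cells were also among the 31 of the whole Treg gate. That gate contains the resting cells, so this overlap is partly built in. In conventional CD4 T cells no member was past the limit in either direction (5.42% of genes higher and 7.08% lower), and the median was -0.02. In those that pass the resting rule Rps4x (0.36) and Rpl5 (0.34) were higher and none was lower (3.11% and 7.73% of genes), with a median of 0.09. CD8 T cells as a whole had Rpl5 and Rps4x higher and Rps28 lower (3.08% and 5.77% of genes). Naive-like CD8 cells had 4 members higher and none lower (2.56% and 6.75%) and memory-like CD8 cells 2 higher and 1 lower (2.68% and 4.82%).

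B cells had 11 members past the limit upward (6.68% of genes) and none downward (8.52%), with a median of 0.14. Of the 11, 10 were also past it in Treg-gated cells of the same libraries, and the other was Rps14. This overlap was not counted over all genes. The highest members in B cells after Rpl5 and Rps4x were Rpl23a at 0.59, Rps15 at 0.55 and Rpl7 at 0.52, chosen after their values were seen. The B gate differed in other ways between the libraries: plasma cell markers summed to 4892 CPM (+/+) and 3275 CPM (fl/fl), and summed cycling markers at 66.5 and 262 CPM. Their part in these ratios was not tested. NK cells, with only 268087 and 300881 UMIs in the gate, had 7 members higher and 1 lower (2.81% and 4.93%). In myeloid cells the median was -0.09, with no member past the limit upward (7.04%) and Rps28 downward (8.04%). The heat map of all members and gates shows both sets, the genes higher in fl/fl across lymphocytes and the short genes that lie below 0 in nearly every gate.

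**Figure D3:**
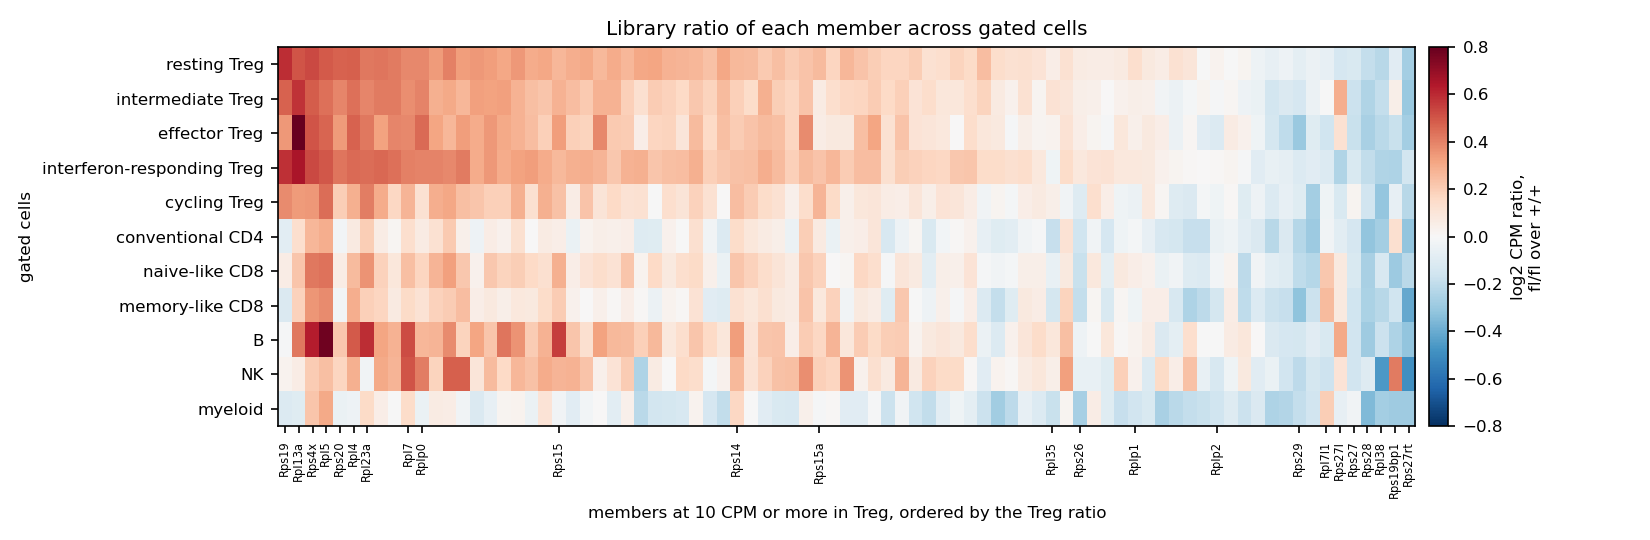
Log2 CPM ratio, fl/fl over +/+ (colour, red for higher in fl/fl and blue for lower), of the 83 measured members (columns, ordered by the ratio in all Treg-gated cells, with some members the text describes labelled) in 11 gates (rows). Rps4x and Rpl5 are red in every row, Rps19 passes a log2 ratio of 0.32 in the 5 Treg rows and in none of the others, and Rpl38, Rps28 and Rps29 are blue in every row.

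Members with short transcripts had lower ratios. The 11 measured members with an annotated principal transcript under 500 nt had a median log2 ratio of -0.02 in Treg-gated cells, the 45 from 500 to 999 nt 0.27, and the 27 of 1000 nt or more 0.34. The same order was present in conventional CD4 T cells, with medians of -0.14, -0.01 and 0.02, and in B cells, with -0.13, 0.14 and 0.20. Across members, which are not independent and share their libraries, Pearson's r of log2 transcript length with the ratio was 0.43 in Treg-gated, 0.38 in conventional CD4 and 0.31 in B cells. Across all 7847 measured genes with a length it was -0.07 in Treg-gated cells. The part of transcript length or of library preparation in the ratios was not tested. Without the members under 500 nt the family share of Treg-gated cells differed by 5.21 points, close to the 5.27 points with them.

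The presence of a pyrimidine run did not separate the members by ratio. The 34 measured members with a run had a median Treg ratio of 0.22 and the 29 without it 0.29, over ranges from -0.22 to 0.68 and from -0.21 to 0.61. For CCGGAAG the medians were 0.19 with it (25 members) and 0.30 without it (38 members).

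The makeup of the family, each member as a share of ribosomal protein UMIs, does not move with the rest of the transcriptome. On this scale Rps19 made up 1.51% of family UMIs in +/+ and 1.99% in fl/fl Treg-gated cells, a log2 ratio of 0.40, and Rps15a, the most abundant member, 3.03% in both. The SD over members of the log2 ratio of family shares was 0.20 in Treg-gated, 0.12 in conventional CD4 and 0.20 in B cells.

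Levels of individual members spanned a wide range. In Treg-gated cells the median member was at 3093 CPM (+/+) and 3419 CPM (fl/fl), and 74 and 75 of the 83 members exceeded 1000 CPM. The counts are of molecules and are not scaled by length, but capture may differ between genes. The highest were Rps15a (7465 and 9066 CPM), Rps24 (7203 and 8015 CPM), Rplp1 of the ribosomal stalk (6916 and 7607 CPM), Rpl13 (5512 and 6927 CPM) and Rpl23 (5259 and 6764 CPM). The other stalk genes, whose products recruit elongation factors, were Rplp0 at 3554 and 4924 CPM and Rplp2 at 3765 and 3990 CPM. Rplp0 differed by 0.47 on the log2 scale, Rplp1 by 0.14 and Rplp2 by 0.08, so the partners of 1 complex were not higher to the same degree. As shares of family UMIs, the 3 stalk genes had this order outside the Treg gate too. Their log2 ratios were 0.07, -0.01 and -0.05 in conventional CD4 T cells and 0.12, -0.12 and -0.15 in B cells.

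The contrast of effector with resting Treg cells was wider than that between the libraries. The family share was 8.64 points lower in effector than in resting cells of +/+ and 11.1 points lower in fl/fl. In both libraries 69 of 83 members were at least 20% lower in effector cells, where 6.09% of genes were, and 2 were higher, where 23.1% of genes were. The median log2 ratio of members was -0.53 in +/+ and -0.58 in fl/fl, beside 0.17 and 0.21 for all 7834 genes measured. The gates rest on other genes, but effector cells were shallower, with median depths of 4696 against 5943 UMIs in +/+ and 5588 against 6880 in fl/fl. Among cells of 4000 to 8000 UMIs the gap was 9.60 points in +/+ and 12.0 in fl/fl.

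Rps19 and Rps20, which were among the highest between the libraries, had the lowest ratios of effector over resting cells. Rps19 was at 4554 CPM in resting and 2600 CPM in effector cells of +/+, and at 6851 and 3312 CPM in fl/fl, log2 ratios of -0.81 and -1.05. Rps20 had -0.84 and -0.96. Next came Rpl12, at the base of the stalk (-0.80 and -0.85), Rps7 (-0.78 and -0.81), Rps18 (-0.68 and -0.81) and Rpl35 (-0.73 and -0.75). The genes that did not follow were the p53-inducible Rps27 paralog Rps27l and Rps19bp1. Rps27l was at 160 CPM in resting and 224 CPM in effector cells of +/+, and at 146 and 243 CPM in fl/fl, ratios of 0.49 and 0.74. Rps19bp1 had 0.74 and 0.65 at levels under 30 CPM. Rpl7l1, Rpl36al, Rps12 and Rpl41 lay nearest to 0 among the rest, with mean ratios of -0.06, -0.13, -0.18 and -0.23. The scatter of this contrast in both libraries shows that a gene's place was similar in each.

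**Figure D4:**
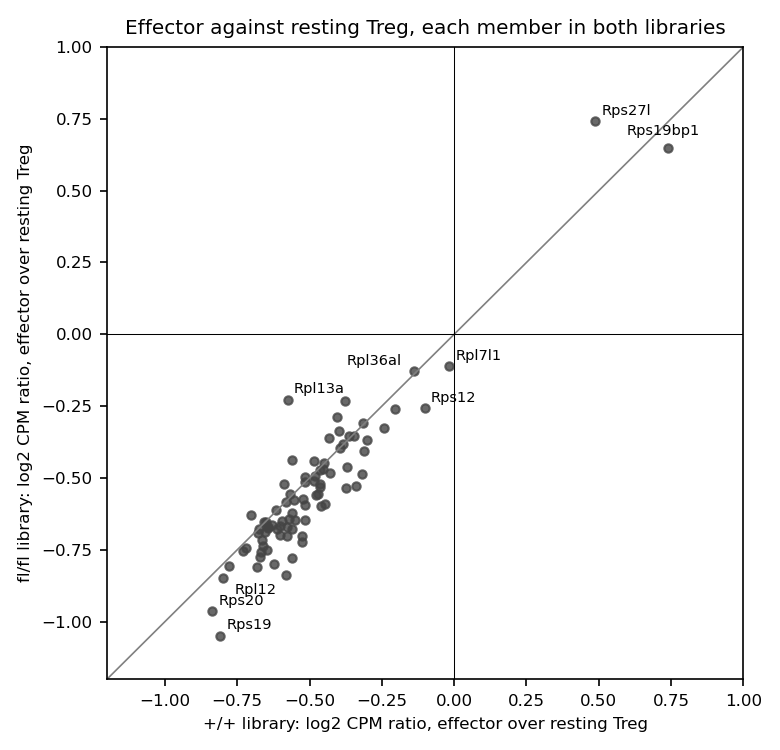
Log2 CPM ratio of effector over resting Treg cells in the fl/fl library (vertical axis) against that in the +/+ library (horizontal axis) for the 83 measured members, with the line of equal values in grey. The medians are -0.53 in +/+ and -0.58 in fl/fl, Rps19 and Rps20 lie lowest, and Rps27l and Rps19bp1 alone lie above 0.

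Other states showed smaller median differences from resting cells. In cycling cells 33 members were lower in both libraries and 3 higher (14.8% and 25.6% of genes), with medians of -0.25 and -0.36. The 3 were Rps27l, Rps19bp1 and Rpl7l1. Rps27l was at 424 and 389 CPM in cycling cells, 1.41 and 1.42 above resting cells on the log2 scale, while Rps27 had the lowest ratios, -1.05 and -0.91. Cycling cells were deeper, with medians of 15929 (+/+) and 13700 (fl/fl) UMIs against 5943 and 6880 in resting cells. The part of depth in this contrast was not tested. In intermediate cells 6 members were lower and 1 higher (2.37% and 11.1%), and in interferon-responding cells none was past the limit in both libraries (0.641% lower and 6.29% higher), with medians of -0.15 and -0.16. Conventional CD4 T cells had no member past the limit against resting Treg cells in both libraries (5.67% lower and 6.93% higher). The median of that contrast was 0.06 in +/+ and -0.16 in fl/fl.

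Members were also lower in memory-like than in naive-like CD8 T cells. There, 59 were lower and 1 was higher in both libraries (3.8% and 9.91% of genes), with medians of -0.41 and -0.49. Rps20 and Rps19 were again among the lowest, with -0.80 and -0.88 for Rps20 and -0.70 and -0.87 for Rps19, and the higher gene was Rps27l, with 0.56 in both. The memory-like gate held 81 and 161 cells.

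B cells against Treg-gated cells had 13 members lower and 1 higher in both libraries (21.6% and 18.4% of genes). Among the lowest were Rps15a (-0.51 in +/+ and -0.62 in fl/fl), Rplp0 (-0.40 and -0.60), Rpl12 (-0.40 and -0.59), Rps23 and Rpl13a. The higher one was Rps19bp1 (0.65 and 0.61). Rps19 had a ratio of -0.03 in +/+ and -0.71 in fl/fl. Of NK against Treg-gated cells 79 members were lower and none higher (7.93% and 13.3%), and of myeloid against Treg-gated cells 63 were lower and 1 higher (17.5% and 27.6%). In myeloid cells Rpl12 had the lowest ratios, -1.48 and -1.92, and Rps27l the highest, 0.94 in both.

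Paralogs of ribosomal proteins were read as shares of the UMIs of each pair. Rps27l made up 4.41% of the UMIs of Rps27 and Rps27l together in +/+ and 4.46% in fl/fl Treg-gated cells. Its share was 3.08% and 3.06% in resting, 5.66% and 6.86% in effector, 14.9% and 13.7% in cycling Treg cells and 15.1% and 14.8% in myeloid cells. Rpl22l1, the paralog of Rpl22, which T cell development is known to depend on, made up 24.9% and 22.9% of their pair in Treg-gated cells, and 31.5% and 28.5% in cycling cells. Rpl36al made up 27.6% and 23.4% of its pair with Rpl36a in Treg-gated cells, 32.0% and 31.7% in effector cells and 40.8% and 41.6% in myeloid cells. In Treg-gated cells Rpl36a was at 1354 and 1716 CPM and Rpl36al at 516 and 525 CPM, so the lower share in fl/fl came with a higher level of Rpl36a. Rpl39, which lies beside the exit tunnel, was at 3397 and 3661 CPM, with 34 and 36 UMIs of its testis-enriched paralog Rpl39l. The muscle paralog Rpl3l had 0 and 1 UMI beside 2214 and 2627 CPM of Rpl3, and Rpl10l had none beside 1678 and 2020 CPM of Rpl10. Rpl7l1 was at 51.5 and 49.8 CPM beside 2482 and 3441 CPM of Rpl7.

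Other genes of translation were read from lists, to be set beside the 6.47% of all genes that were higher and 23.3% that were lower in Treg-gated cells. Of 18 measured non-ribosomal genes with TOP messages or known to be made with them, 9 were past the limit upward in Treg-gated cells and none downward, with a median of 0.32. The elongation factor Eef1a1 was at 5092 CPM (+/+) and 7991 CPM (fl/fl) (0.65), the nucleolar chaperone Npm1 at 1012 and 1559 CPM (0.62), and Rack1, a scaffold on the 40S subunit, at 2093 and 2937 CPM (0.49). In conventional CD4 T cells none of the 18 was past the limit upward (5.42% of genes) and the median was 0.08, and in B cells 7 were (6.68%), with a median of 0.29. Of 28 ribosome biogenesis genes, 3 were higher and 1 lower in Treg-gated cells, with a median of 0.12. Npm1 is in this list too and is 1 of the 3. Dkc1, of the pseudouridine-forming complex, was at 42.2 and 63.3 CPM, Myc, a transcriptional activator of ribosome biogenesis, at 64.3 and 97.0 CPM, and Bop1, of pre-60S processing, at 25.7 and 19.5 CPM.

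Of 11 mTOR and p53 pathway genes, 1 was higher and 1 lower, with a median of -0.06 that was positive with other scalings (0.07 and 0.04). Rptor, the scaffold of mTORC1, was the lower one, at 80.5 and 50.1 CPM (-0.68). Larp1, which binds TOP messages, was at 117 and 128 CPM, and Mdm2, the p53 ligase, at 82.8 and 72.0 CPM. Of 75 mitochondrial ribosomal protein genes none was higher and 2 were lower, Mrps6 (-0.67) and Mrpl33 (-0.53), with a median of -0.01. That median too was positive with other scalings (0.12 and 0.09). The cytosolic and mitochondrial sets thus had medians 0.27 and -0.01 in Treg-gated cells. Their medians were 0.14 and 0.13 in B cells and -0.02 for both in conventional CD4 T cells. In B cells 8 of 75 mitochondrial genes were higher and 1 lower, beside 6.68% and 8.52% of all genes.

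Among the genes outside the family whose log2 CPM was most like the log2 family share over the 22 combinations of 11 gates and 2 libraries were Rack1 (Pearson's r 0.96), Eef1b2 (0.95), Wdr89 (0.93) and Taf1d (0.90), of 3181 genes compared. These points share libraries, and the correlation is a description. Rack1 was at 2412 and 3246 CPM in resting, 1598 and 2065 CPM in effector Treg cells and 1843 and 2326 CPM in B cells, an order like that of the family share.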

How the data were processed

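Spleen CD4+FoxP3+ cells of 2 mouse genotypes were profiled, with 1 library per group. Per the submitters' processing notes, fastp, Cell Ranger 7.1.0 and Seurat 4.1.1 were used, with the builds mm10 and GRCm38. The deposited values are raw UMI counts per gene and barcode, which the authors did not normalize, per the files. The filter that gave the deposited barcodes is not given in the sources used here.

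From these, barcodes with under 500 genes or over 10% mitochondrial UMIs were left out, which kept 7790 (+/+) and 8634 (fl/fl). Cells were gated on raw marker UMIs. A T cell needed 2 or more Cd3 or T cell receptor constant UMIs with at most 1 B lineage UMI, at most 1 myeloid UMI and fewer than 10 neutrophil UMIs, and a Treg-gated cell also 1 Foxp3 or 3 Ikzf2 UMIs and no Cd8 UMI. Treg states were set in the order cycling (3 or more marker UMIs), interferon-responding (5 or more), then effector or resting by 3 or more marker UMIs and more than 2 times those of the other list, and intermediate. No doublet caller was run, and barcodes with markers of more than 1 lineage gate (177 and 140) were left out. In all, 2036 and 2178 kept barcodes, of which 1517 and 1710 were T cells, fell in no gate. Gates with 50 or more cells in both libraries were compared, on UMIs summed per gate and scaled by the total UMIs of that gate (CPM).

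Log2 ratios have 95% exact conditional binomial intervals, and differences between 2 ratios have normal intervals. Both cover counting error only, and no test across replicates was possible. A gene was measured at 10 CPM or more in either library. Names followed a rule: the 6 highest and 6 lowest ratios of 3 contrasts among members at 20 CPM or more, the 5 highest levels, known paralog pairs and up to 3 genes each way per list. Rpl7, Rpl23a, Rps15, Rps14, Rps3a1, Rps29, Rplp2 and other members named beside a count were chosen after their values were seen. A few named genes are not reported here. The members and lists were chosen with earlier results of these data known. Gene positions are from GENCODE M21 (GRCm38) and start sequences from RefSeq (GRCm38.p6). Alternatives covered the scaling, filters, gates, depth, state weights, floor and fold. The ratio and interval steps were tested on simulated data with known answers. Python 3.11.15, numpy 2.4.6, scipy 1.17.1, pandas 2.3.3 and matplotlib 3.10.9 were used.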

Additional observations from a re-analysis of the deposited data

Results flagged for a closer look

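Rpl35 and Rps26 had ratios of opposite sign in Treg-gated and conventional CD4 T cells, each past 1.1-fold, and this difference was not tested because each group has 1 library. Rpl35, a 60S protein, had a log2 ratio of 0.17 (fl/fl over +/+) in Treg-gated cells (1106 and 1246 CPM) and -0.18 in conventional CD4 T cells (1396 and 1230 CPM), a gap of 0.36. Rps26, a 40S protein at the mRNA exit channel, had 0.16 in Treg-gated cells (2223 and 2485 CPM) and -0.16 in conventional CD4 T cells (2398 and 2143 CPM), a gap of 0.32. The conventional CD4 gate held more effector and memory marker UMIs in the fl/fl library, and their part in these gaps was not tested.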

How the results depend on the processing

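No paired analysis was possible because each group has 1 library, and for the same reason no library could be left out. The 31 members higher in Treg-gated cells became 55 with scaling by the median gene (11.5% of all genes), 50 with scaling by UMIs outside ribosomal protein and mitochondrial genes (9.76%), 14 with Treg states weighted alike (6.13%), 4 at a fold of 1.5 (2.45%) and 62 at 1.1 (13.5%), where 3 were lower (46.1%). The members' median log2 ratio became 0.40 and 0.37 with the median and outside-gene scalings, 0.17 with states weighted alike, 0.26 with a mitochondrial limit of 5%, 0.26 in cells with a Foxp3 UMI, 0.27 with a stricter Ikzf2 gate and with cells of 4000 to 8000 UMIs, 0.28 without the deepest 5% of barcodes, and 0.27 with no floor or one of 50 CPM. The TOP partner median became 0.45 and 0.42 with these scalings, 0.26 with states weighted alike, 0.32 in cells with a Foxp3 UMI, 0.33 with the stricter gate, 0.29 at 4000 to 8000 UMIs and 0.34 without the deepest barcodes. The ribosome biogenesis median became 0.26 and 0.22 with these scalings, 0.07 with states weighted alike and 0.21 in cells with a Foxp3 UMI. It was 0.03 at 4000 to 8000 UMIs and 0.11 with a 5% mitochondrial limit and without the deepest barcodes.

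The sign turned for the median of the mTOR and p53 genes (0.073 and 0.039 with the scalings), for mitochondrial ribosomal proteins (0.12 and 0.087, and 0.0013 in cells with a Foxp3 UMI), for Rps27 (0.052 and 0.018), for Rps27l (0.069 and 0.035, and 0.076 in cells with a Foxp3 UMI) and for Rps28 (0.022 with the median gene). The scalings shift every ratio of a gate by the same amount, and the cause of the other changes was not tested.

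The family share difference of Treg-gated cells, 5.27 points, became 5.12 with a 5% mitochondrial limit, 4.96 in cells with a Foxp3 UMI, 5.51 with the stricter gate, 5.65 at 4000 to 8000 UMIs, 5.67 without the deepest barcodes and, chosen after seeing the data, 5.21 without members under 500 nt. In resting cells it became 4.46, 4.76, 4.74 and 4.29 under the first 4 of these and 4.45 with a state margin of 4 times. In conventional CD4 T cells it became -0.106 with the mitochondrial limit and turned to 0.480 at 4000 to 8000 UMIs and, chosen after seeing the data, to 1.97 in those that pass the resting rule. The effector minus resting gap became -8.79 (+/+) and -11.2 (fl/fl) with the mitochondrial limit, -8.15 and -12.3 in cells with a Foxp3 UMI, -8.29 and -11.1 with the stricter gate, -9.60 and -12.0 at 4000 to 8000 UMIs, -8.76 and -11.2 without the deepest barcodes and -9.57 and -11.8 with the state margin. Of members lower in effector cells 27 were past a fold of 1.5 (3.08% of genes). Of members higher there, 1 was past the limit at that fold (11.7%), with the median scaling (12.8%) and in cells with a Foxp3 UMI (11.4%). Under the other alternatives these values kept their direction and moved by less than counting error or, for counts, by less than 1.5 times. The scaling does not enter a share, so scaling alternatives give no share values. The ratio of Rps19 in Treg-gated cells ranged from 0.49 to 0.81 over 9 alternatives and that of Rpl38 from -0.23 to -0.05.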
